A study of Mus musculus with 6 samples.

Results

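Expression of 10 antioxidant defense genes was followed across naive, rejecting, and tolerized mouse kidneys. The genes were taken by symbol: the glutathione peroxidases Gpx1, Gpx3, and Gpx4, the superoxide dismutases Sod1 and Sod2, the glutathione synthesis genes Gclc and Gclm, the reductase genes Txnrd1 and Srxn1, and the quinone reductase gene Nqo1. All 10 were listed, among 28208 genes shared by the count matrices of every kidney. The matrices of naive kidneys listed 28692 genes, and those of transplanted kidneys 31053. The series holds single cell RNA sequencing of 6 kidneys, 2 per group, with 1 library per kidney and raw counts of unique molecular identifiers (UMIs, which mark single captured RNA molecules). Naive kidneys were not transplanted and came from male C57BL/6 (B6) mice of 10 to 12 weeks. Rejecting and tolerized kidneys were BALB/c kidneys, labelled male and 6 to 7 weeks, placed in male B6 recipients from which both native kidneys had been removed, and they were taken on d15. Recipients of the tolerized group also received intravenous BALB/c splenocytes fixed with ethylenecarbodiimide (ECDI), before transplantation and again on the day after it, whereas those of the rejecting group did not. Strain, age, and the gene list of the count matrices all changed with transplantation, so these effects cannot be told apart in a comparison with naive kidneys. That limit does not apply between the rejecting and tolerized groups, which shared strain, age, day, and recipient, though their libraries differed in depth.

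These genes form successive layers of defense against reactive oxygen species. Superoxide dismutases turn superoxide into hydrogen peroxide, Sod1 in the cytosol and Sod2 in the mitochondrial matrix. Glutathione peroxidases then reduce peroxides with glutathione: Gpx1 acts inside the cell, Gpx4 reduces lipid peroxides in membranes and so limits ferroptosis, and Gpx3 is secreted, with the proximal tubule known as the main source of the enzyme in plasma. Gclc and Gclm encode the catalytic and modifier subunits of the rate-limiting enzyme of glutathione synthesis. Txnrd1 encodes cytosolic thioredoxin reductase, Srxn1 encodes sulfiredoxin, which repairs overoxidized peroxiredoxins, and Nqo1 encodes an enzyme that reduces quinones. Gclc, Gclm, Txnrd1, Srxn1, and Nqo1 are textbook targets of the transcription factor Nrf2 (Nfe2l2), which is held in check by Keap1 and binds antioxidant response elements in promoters.

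The kidneys gave 34874702 to 96803926 UMIs each, and 5603 to 10479 cells per kidney were used once doublets were removed. Cells were clustered with the 10 genes left out of the genes that drive the clustering, and classes were named from marker genes, so that proximal tubule, for example, means cells like those of the proximal tubule. Every cluster of the 5 tubular segments, of macrophages, and of T cells carried at least 7 of its own markers. The intercalated cluster (26), with 10 of its own, also carried 8 markers of principal cells. In that cluster 18.9% of cells had been called doublets and were removed. Proximal tubule cells numbered 1141 to 4844 per kidney. Intercalated cells numbered 34 to 104, and macrophages were sparse in naive kidneys, with 35 and 96 cells, against 279 to 1146 in the grafts. Naive and transplanted cells of the proximal tubule mostly lay in different clusters (1, 4, 12, and 16 for naive kidneys; 3, 5, 10, 13, and 18 for grafts; 31 for both), as did those of the distal convoluted tubule (20, 14, and the shared 24). Of the naive macrophages, 33 and 95 lay in cluster 22 (median 1843 UMIs, 28.1% called doublets), which also held 75 to 277 cells of each graft. Cluster 2 (median 10817 UMIs) held 869 and 993 rejecting and 789 and 204 tolerized macrophages. The median share of mitochondrial UMIs per cell, over all cells, was 25.5% and 24.95% in the naive kidneys, against 5.39% to 13.7% in the grafts, with the rejecting and tolerized groups overlapping. Within the proximal tubule it was 25.34% and 24.86% in the naive, 18.17% and 16.98% in the rejecting, and 14.98% and 20.99% in the tolerized pair. In principal cells it was 19.89% and 22.45%, 16.19% and 16.38%, and 16.31% and 26.2%. The loop of Henle had 36.78% and 37.76% in the naive pair and 23.84% to 29.54% in the grafts. For the distal convoluted tubule it was 38.5% and 40.6% against 22.26% to 28.93%, and for intercalated cells 28.9% and 28.98% against 17.16% to 20.68%. UMIs of a class were added up within each kidney, and the 2 kidneys of a group were its replicates. CPM stands for UMIs per 1e+06 UMIs of a sum, after TMM scaling within that class unless raw CPM is named. Values are always in the order of first and second kidney of a group. The quasi-likelihood test of edgeR was used throughout, and a gene passed at a false discovery rate (FDR) under 0.05 over all genes tested in the class. Fold changes are log2 ± SE.

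The promoters of the genes are shown first, because several of these genes are known as Nrf2 targets. The core of the antioxidant response element, TGACNNNGC, was searched on both strands of RefSeq promoter windows of the GRCm38.p6 build, which run from 250 bases before a start site to 50 bases after it. The core was found in 12.39% of all 32851 windows, and in at least 1 window of 13.99% of all 27025 genes. Among the genes studied here, Sod1, Gclm, Txnrd1, and Srxn1 held 1 match each, and these letters were not in the windows of Gpx1, Gpx3, Gpx4, Sod2, and Nqo1. Gclc had no entry among the windows. In Txnrd1 the match was in 1 of 3 windows. The match in Srxn1 began 28 bases after the start site. The other 3 matches lay 56 bases (Sod1), 134 bases (Gclm), and 92 bases (Txnrd1) before the start site, and they are printed below 5′ to 3′ on the strand of the gene, which is the plus strand for each, with 20 bases on either side and the match in capitals. All 3 read as the core on the opposite strand. The Sod1 window was chr16:90220686-90220734, that of Gclm chr3:122245403-122245451, and that of Txnrd1 chr10:82859094-82859142.
Sod1: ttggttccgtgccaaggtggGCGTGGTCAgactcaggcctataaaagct
Gclm: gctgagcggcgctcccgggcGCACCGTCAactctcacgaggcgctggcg
Txnrd1: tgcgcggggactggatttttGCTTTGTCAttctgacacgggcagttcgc
A match describes letters and not a site bound in these cells.

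The 10 genes differed widely in where they were found. To set classes side by side, all sums were scaled together by TMM, and the mean over 6 kidneys was ranked for the 5 segments and macrophages. The proximal tubule ranked highest for 7 of the 10 genes (6 with raw CPM): Gpx1, Gpx3, Gpx4, Sod1, Sod2, Gclm, and Txnrd1. Gpx3 had a mean of 15739 jointly scaled CPM in the proximal tubule, and exceeded the next class in 6 of 6 kidneys. Gclm stood at 480.1 in the proximal tubule against 80.8 in the distal convoluted tubule, again higher in 6 of 6 kidneys. Gpx4 stepped down in 6 of 6 kidneys from the proximal tubule (2015) to the loop of Henle (948), then to the distal convoluted tubule (651), and then to intercalated cells (425). For Gpx1, macrophages ranked directly below the proximal tubule and exceeded the next class in 6 of 6 kidneys, with 1090.4 against 467 in the distal convoluted tubule.

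Gclc and Nqo1 ranked highest in the distal convoluted tubule, with means of 161 and 42.6, and Srxn1 in intercalated cells, with a mean of 47.5. The first step of each of these orders was not the same in all kidneys: Gclc was higher in the distal convoluted tubule than in intercalated cells in 4 of 6 kidneys, Nqo1 higher there than in the proximal tubule in 4 of 6, and Srxn1 higher in intercalated cells than in the distal convoluted tubule in 3 of 6. Of 50 pairs of neighbors in the orders, 17 had the same sign in 6 of 6 kidneys, which gives p = 0.03125 in the exact 2-sided sign-flip test, the smallest that 6 kidneys allow. None of the 50 passed an adjusted p of 0.05 (smallest adjusted p = 0.0919), and the other neighbors did not keep their order in every kidney. Txnrd1 and Srxn1 varied least among segments: Txnrd1 means ran from 44.6 to 82.5 and Srxn1 means from 22.7 to 47.5.

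In the proximal tubule, the glutathione peroxidase genes Gpx3 and Gpx4 were lower in rejecting than in naive kidneys, and Gpx4 was also lower in tolerized kidneys. Gpx3 stood at 17815 and 19964 CPM in the naive pair, 7114 and 7192 in the rejecting pair, and 11754 and 13596 in the tolerized pair, so that the 3 groups did not overlap and the tolerized group lay between the others. Against naive kidneys, Gpx3 fell by 1.40 ± 0.21 in rejecting kidneys (FDR = 0.00164), and the tolerized value of −0.58 ± 0.21 did not pass (FDR = 0.0661). It passed by DESeq2 (−0.60, FDR = 0.00167), with at most 20% mitochondrial UMIs (−0.87, FDR = 0.0206), and without the first (FDR = 0.0448) or the second rejecting kidney (FDR = 0.0464). Groups were apart for 75.1% of all genes between rejecting and naive and for 71.9% between tolerized and naive proximal tubules. Gpx4, which guards membrane lipids, stood at 2255 and 2587 CPM in the naive pair, 1097 and 1248 in the rejecting pair, and 1458 and 1272 in the tolerized pair. Both graft groups lay below the naive group without overlap. Gpx4 fell by 1.05 ± 0.19 in rejecting (FDR = 0.00353) and by 0.83 ± 0.19 in tolerized kidneys (FDR = 0.0127). Gpx1 stood at 3748 and 5637 CPM in the naive pair, 3287 and 2767 in the rejecting pair, and 3499 and 3018 in the tolerized pair, and its differences from naive of −0.63 ± 0.24 and −0.53 ± 0.24 did not pass (FDR = 0.0668 and 0.131). The first of them passed by DESeq2 (−0.66, FDR = 0.0159), with no filter on low counts (FDR = 0.0210), with at most 20% mitochondrial UMIs (FDR = 0.0496), and without the first naive kidney (−0.92, FDR = 0.0450). The call for Gpx4 in tolerized kidneys was lost without the second naive kidney (−0.73, FDR = 0.102) and without the second tolerized kidney (−0.74, FDR = 0.0659). Among the 3 contrasts of Gpx3 in the proximal tubule, the rejecting one was called in all 16 alternative settings, with log2 fold changes from −1.50 to −1.33.

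**Figure D1:**
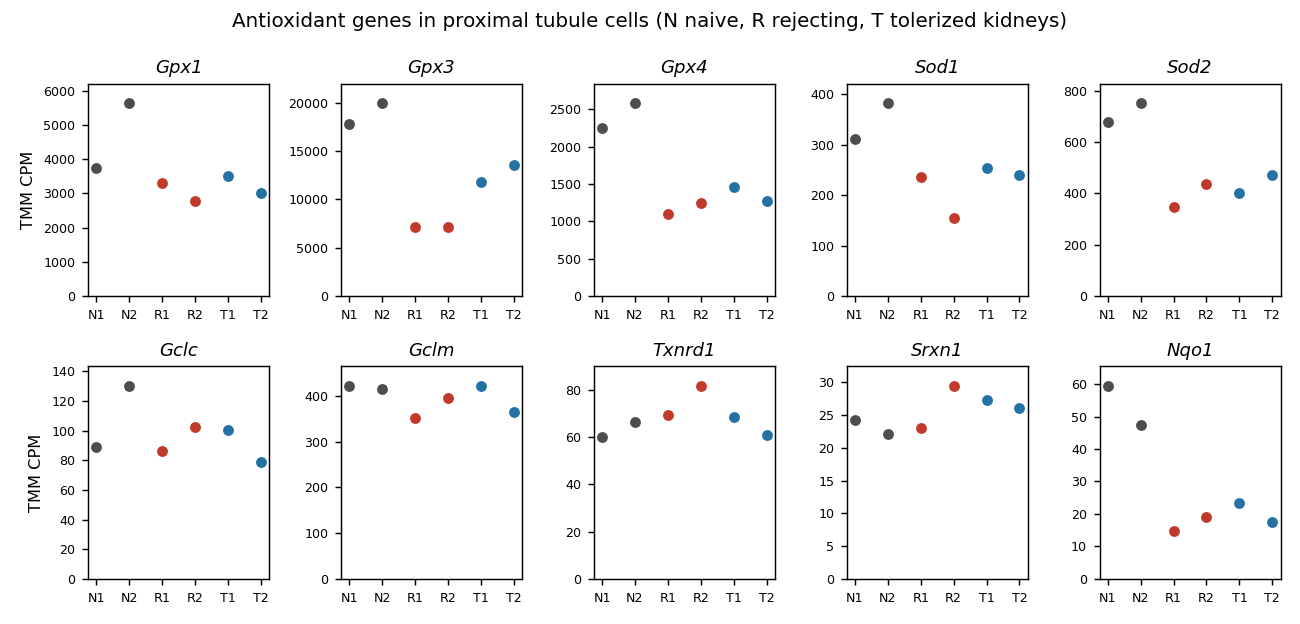
TMM CPM (vertical axes, from 0) of each gene in proximal tubule cells of the 6 kidneys, 1 point per kidney (N naive, R rejecting, T tolerized; first and second kidney). The naive points of Gpx1, Gpx3, Gpx4, Sod1, Sod2, and Nqo1 sit above all 4 graft points, and the tolerized points of Gpx3, at 11754 and 13596, sit between the naive and rejecting points.

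Gpx3 also differed within the proximal tubule. The clusters with markers of the early S1 and S2 segments, and fewer than 3 of S3, held 27828 and 32871 CPM in the naive pair, 9733 and 9712 in the rejecting pair, and 17537 and 17938 in the tolerized pair. Clusters that held markers of the late S3 segment as well were a mixed set: of clusters 1, 5, 10, and 12, which make up most of it, each also carried 3 to 5 markers of S1 and S2. This mixed set held less Gpx3, at 10739 and 10243 in the naive pair, 5729.8 and 5710.3 in the rejecting pair, and 9295 and 6937 in the tolerized pair. The order of the groups was thus the same in both sets of clusters, with no overlap, and the naive-to-rejecting gap was wider in the S1 and S2 set. In that set, cluster 3 gave 1377 of 1594 and 327 of 585 rejecting cells, and 633 of 1520 and 276 of 1610 tolerized cells. This cluster had a median of 1638 UMIs per cell and held 2 and 6 naive cells. Its part in the wider gap was not tested. The mix of the 2 sets varied: S1 and S2 gave 22912157 of 36291079 proximal tubule UMIs in the second tolerized kidney. They gave 11355448 of 35524636 in the first. The part of this mix in the pooled Gpx3 values was not tested. Nqo1 had the opposite distribution, with 19.8 and 27.2 CPM in the S1 and S2 set and 86.8 and 58.8 in the mixed set of naive kidneys, against 7.96 to 14.5 and 17.9 to 28.6 in the grafts. Gclc and Gclm were likewise higher in the mixed set in every kidney: Gclc ran from 46.4 to 55.4 in the S1 and S2 set and from 106 to 178 in the mixed set, and Gclm from 213 to 356 and from 372 to 565. The groups went opposite ways for Gclm. In the S1 and S2 set it was 213 and 251 in the naive pair and 294 to 356 in the grafts. In the mixed set it was 565 and 507 in the naive pair and 372 to 501 in the grafts. Txnrd1 in the S1 and S2 set was 45.5 and 49.0 in the naive pair and 57.5 to 69.2 in the grafts, and in the mixed set the naive and graft kidneys overlapped. Sod1 overlapped in the S1 and S2 set, at 206 and 274 in the naive pair and 134 to 230 in the grafts. Its mixed set held 382 and 438 against 166 to 276. Gpx1 likewise overlapped in the S1 and S2 set, at 3079 and 5183 against 2555.5 to 3159. The mixed set held 4191 and 5682.5 against 2867 to 3943. These values are descriptions, without a test.

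Both superoxide dismutases were lower in the proximal tubule of rejecting than of naive kidneys. Sod1, the cytosolic enzyme, stood at 311 and 383 CPM in the naive pair, 236 and 154 in the rejecting pair, and 253 and 239.6 in the tolerized pair. Sod2, the mitochondrial enzyme, stood at 679 and 753, 347 and 435, and 402 and 473. For both genes every graft lay below both naive kidneys in these sums, and for Sod2 the rejecting and tolerized kidneys overlapped. Within the S1 and S2 set alone, Sod1 of naive and graft kidneys overlapped. Sod1 fell by 0.83 ± 0.23 in rejecting kidneys (FDR = 0.0191) and Sod2 by 0.87 ± 0.19 (FDR = 0.00754). In tolerized kidneys Sod2 fell by 0.71 ± 0.19 (FDR = 0.0229), whereas Sod1 at −0.49 ± 0.22 did not pass (FDR = 0.126). Single kidneys decided some of these calls. Sod1 in rejecting kidneys was not called without the second naive kidney (−0.69, FDR = 0.113) or without the second rejecting kidney (−0.56, FDR = 0.0673), nor with cells limited to 20% mitochondrial UMIs (−0.56, FDR = 0.0800). Sod2 in rejecting kidneys missed the threshold without the second naive kidney (−0.81, FDR = 0.0547), and in tolerized kidneys without the first naive (−0.79, FDR = 0.0787), the second naive (−0.64, FDR = 0.143), or the first tolerized kidney (−0.59, FDR = 0.115).

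Nqo1 showed the largest fall of the 10 genes in the proximal tubule. It stood at 59.5 and 47.3 CPM in the naive pair, 14.6 and 19.1 in the rejecting pair, and 23.4 and 17.4 in the tolerized pair. Nqo1 fell by 1.68 ± 0.23 in rejecting (FDR = 0.00100) and by 1.39 ± 0.22 in tolerized kidneys (FDR = 0.00264), and both calls held in all 16 alternative settings. The other Nrf2 targets did not pass there in either contrast. Gclm stood at 422 and 415 CPM in the naive pair, 351 and 396 in the rejecting pair, and 421 and 364 in the tolerized pair. Gclc ran from 78.7 to 130.2 over the 6 kidneys, Txnrd1 from 60.3 to 81.9, and Srxn1 from 22.2 to 29.5. Against naive kidneys, the differences of these 4 genes lay between −0.22 and 0.25 for rejecting and between −0.29 and 0.20 for tolerized kidneys.

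Counted together, 5 of 10 genes were lower in the proximal tubule of rejecting than of naive kidneys and 3 of 10 were lower in tolerized than in naive kidneys, with none higher. That class also changed broadly: 41.5% of 12645 tested genes passed between rejecting and naive kidneys and 31.6% between tolerized and naive kidneys. The median difference of the 10 genes was −0.73 in rejecting and −0.51 in tolerized kidneys, against 0.06 and 0.05 over all genes. Other features of the cells moved with the same contrast. Ribosomal protein genes, which are short transcripts, had a median of −0.46 in rejecting and −0.37 in tolerized kidneys, and tubular injury markers had medians of 2.21 and 1.54, with 6 and 5 of 9 tested markers higher. Taken against genes of similar transcript length, the rejecting value of Gpx4 moved from −1.05 to −0.39, that of Sod1 from −0.83 to −0.17, and that of Sod2, whose annotated transcript is long, from −0.87 to −1.39. The tolerized values moved from −0.83 to −0.30 for Gpx4 and from −0.71 to −1.17 for Sod2. Sums of 12 T cell markers in the proximal tubule were 1.24 and 1.31 raw CPM in the naive pair, 191 and 43.2 in the rejecting pair, and 19.6 and 16.3 in the tolerized pair. The part of these features in the results was not tested. Sod1 overlaps Scaf4 on the opposite strand, and the processing notes do not state how overlapping reads were assigned.

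**Figure D2:**
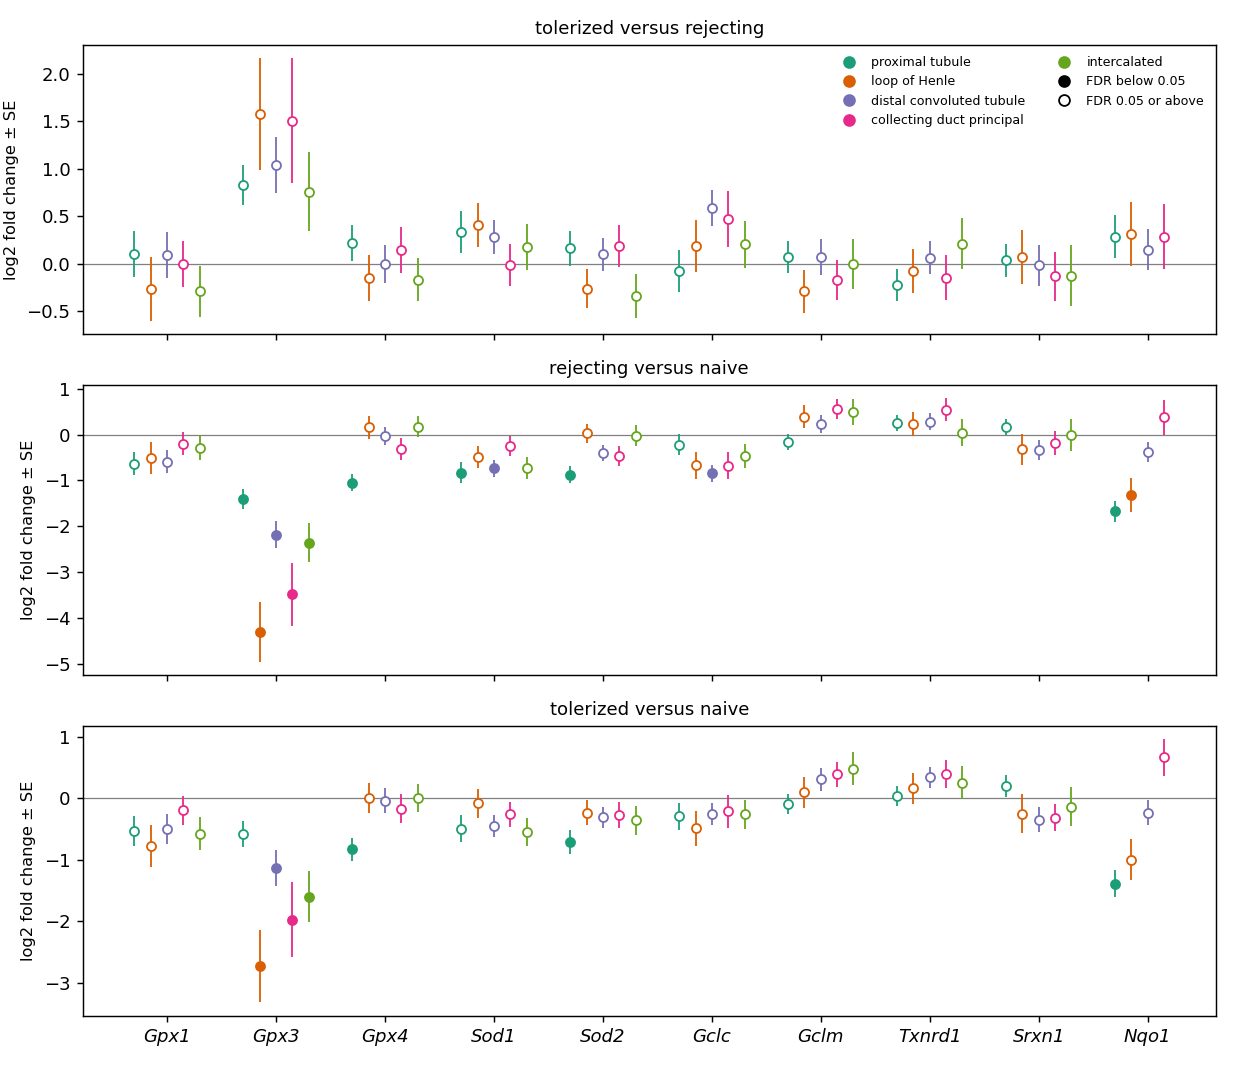
Log2 fold changes (vertical axes, points with bars of ± 1 SE from edgeR) of each gene in the 5 tubular segments (colors) for the 3 contrasts, with filled points for FDR under 0.05. Filled points appear in the 2 contrasts with naive kidneys only, all of them below 0, and Gpx3 has the largest values, down to −4.30 in the loop of Henle.

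Beyond the proximal tubule, Gpx3 separated the 3 groups in every segment. In the loop of Henle it stood at 698 and 2621 CPM in the naive pair, 134 and 32.5 in the rejecting pair, and 219.8 and 279 in the tolerized pair. In the distal convoluted tubule the values were 960.4 and 2021, 348 and 310.2, and 699 and 656. In collecting duct principal cells they were 979 and 1466, 219 and 14.4, and 234 and 387. Intercalated cells held 2277 and 3319, 841 and 252, and 946 and 899. In each segment, all naive kidneys were above all tolerized kidneys, which were above both rejecting kidneys. Groups were apart for 55.2% to 62.9% of all genes between grafts and naive kidneys in these segments, and for 36.3% to 37.8% between tolerized and rejecting kidneys. Against naive kidneys, Gpx3 passed as lower in rejecting kidneys in the loop of Henle (−4.30 ± 0.65, FDR = 0.000921), the distal convoluted tubule (−2.18 ± 0.30, FDR = 0.000572), principal cells (−3.48 ± 0.69, FDR = 0.00299), and intercalated cells (−2.36 ± 0.43, FDR = 0.00475). In tolerized kidneys the differences were −2.73 ± 0.59 (FDR = 0.0120), −1.14 ± 0.29 (FDR = 0.0219), −1.97 ± 0.61 (FDR = 0.0385), and −1.60 ± 0.42 (FDR = 0.0357) in the same order.

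These falls rested on kidneys that differed from each other. Without the first rejecting kidney, the principal cell value moved from −3.48 to −6.41, since the second rejecting kidney held 14 Gpx3 UMIs in 64 such cells. Without the second naive kidney, the tolerized values were −1.48 in the loop of Henle (FDR = 0.130) and −0.52 in the distal convoluted tubule (FDR = 0.263). The tolerized calls in all 4 segments were also lost without the first tolerized kidney (FDR from 0.0795 to 0.215) and without the second (FDR from 0.0636 to 0.195), and those in principal and intercalated cells without either naive kidney (FDR from 0.0955 to 0.238).

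In the loop of Henle and in principal cells, Gpx3 followed the summed level of proximal tubule markers. Droplets can take up RNA that broken cells release, so transcripts of an abundant cell can appear in others. The summed level of 16 proximal tubule markers was used as an estimate of such free RNA. Empty droplets were not used, and the estimate does not tell free RNA from remaining doublets or misassigned cells. That sum was 769 and 2373 raw CPM in the loop of Henle of naive kidneys, 211 and 53.2 in the rejecting pair, and 211 and 350.5 in the tolerized pair, so it too was higher in naive than in rejecting kidneys. T cells, which should hold neither, showed sums of 1854 and 2784, 452 and 127, and 395 and 805. Gpx3 in these T cells was 1740.0 and 3516, 241 and 63.9, and 351 and 655 raw CPM. For each kidney, an expected Gpx3 level was set as the marker sum in a class times the ratio of Gpx3 to the markers in the proximal tubule of the same kidney. Observed Gpx3 was 1.01 to 1.37 times the expected level in T cells, 1.04 to 1.69 times in the loop of Henle, and 0.969 to 1.31 times in principal cells. In these classes Gpx3 was thus near the level expected from the markers, and the source of that RNA was not tested.

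**Figure D3:**
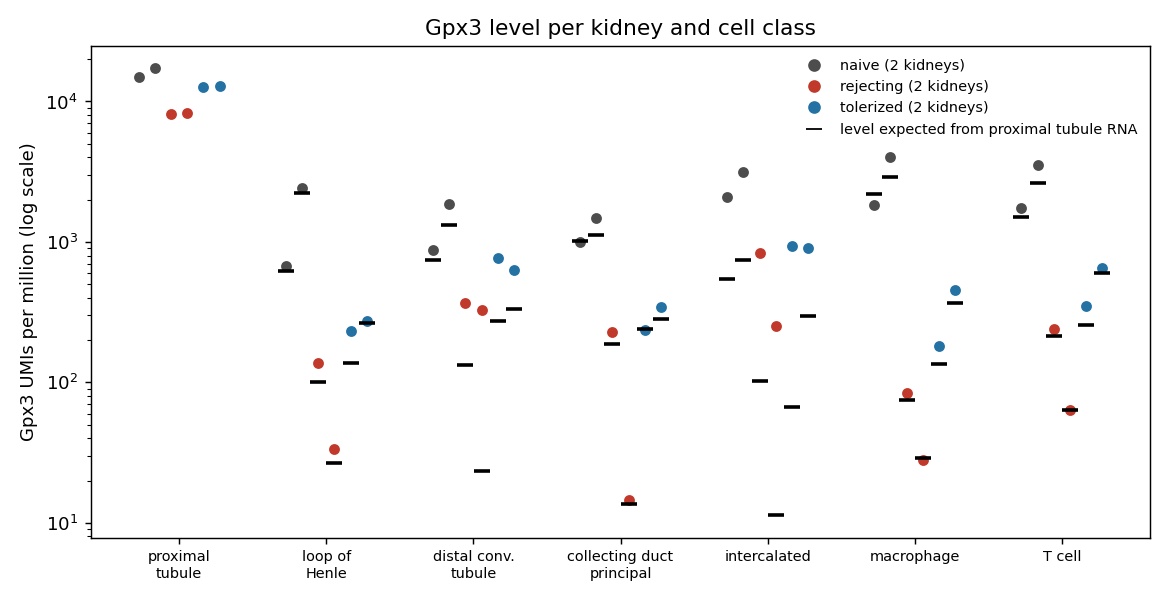
Gpx3 in raw CPM (vertical log axis) in 7 cell classes, 1 point per kidney colored by group, with a black bar at the level expected from the proximal tubule markers in the same kidney. Points lie close to their bars in the loop of Henle, principal cells, macrophages, and T cells, and farthest above them in intercalated cells, where the ratio of observed to expected runs from 3.05 to 22.4.

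Intercalated cells differed from that pattern, with 3.05 to 22.4 times the expected Gpx3, and the distal convoluted tubule held 1.18 to 14.2 times, with naive kidneys at 1.18 and 1.41, rejecting at 2.75 and 14.2, and tolerized at 2.77 and 1.89. When the expected counts were subtracted, an alternative added after the data were seen, Gpx3 in intercalated cells still fell in rejecting kidneys (by 2.13, FDR = 0.0066) and in tolerized kidneys (by 1.53, FDR = 0.0386). The other segments lost their calls. In rejecting kidneys the values became −2.57 in the loop of Henle (FDR = 0.0715), −0.66 in the distal convoluted tubule (FDR = 0.341), and −3.42 in principal cells (FDR = 0.181). In tolerized kidneys they became −1.42 (FDR = 0.305), −0.06 (FDR = 0.951), and −2.29 (FDR = 0.232). The intercalated call did not hold with cells limited to 20% mitochondrial UMIs, where the rejecting value was −0.99 (FDR = 0.315) and the tolerized value −0.65 (FDR = 0.623). That limit left 16 and 9 intercalated cells in the naive pair, 25 and 15 in the rejecting pair, and 19 and 33 in the tolerized pair. The part of these small sums in the lost calls was not tested. The intercalated cluster also carried 8 markers of principal cells, and the part of mixed cells in its Gpx3 level was not tested.

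Few other genes passed in these segments. Nqo1 in the loop of Henle stood at 21.7 and 24.5 CPM in the naive pair, 7.73 and 10.7 in the rejecting pair, and 14.2 and 9.17 in the tolerized pair, from 16 to 72 UMIs per kidney. It fell by 1.31 ± 0.38 in rejecting kidneys (FDR = 0.0315), a call lost without the first naive kidney (−1.40, FDR = 0.113), the second naive kidney (−1.24, FDR = 0.104), or the first rejecting kidney (−1.08, FDR = 0.133), and with the free RNA estimate subtracted (−1.17, FDR = 0.0603). In the distal convoluted tubule, a limit of 20% mitochondrial UMIs left 65 of 629 and 75 of 602 naive cells. It left 153 of 488 and 56 of 231 rejecting cells, and 164 of 389 and 174 of 490 tolerized cells. The part of this loss of cells in the values at that limit was not tested. With all cells of that segment, Gclc stood at 190.3 and 171 CPM in the naive pair, 106 and 95.6 in the rejecting pair, and 132 and 169.8 in the tolerized pair, with no overlap between any groups. Gclc fell there by 0.84 ± 0.19 in rejecting kidneys (FDR = 0.00796), which was lost without the first naive kidney (−0.79, FDR = 0.0625), and with cells limited to 20% mitochondrial UMIs the value was 0.06 (FDR = 0.912). Sod1 in that segment, at 149.6 and 151 CPM in the naive pair, 101 and 79.7 in the rejecting pair, and 103 and 117 in the tolerized pair, fell by 0.74 ± 0.18 in rejecting kidneys (FDR = 0.0134). The Sod1 call was lost without the first naive (−0.77, FDR = 0.0623), the second naive (−0.75, FDR = 0.0728), or the second rejecting kidney (−0.58, FDR = 0.0612), and at the stricter mitochondrial limit (−0.24, FDR = 0.637).

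Read against all genes, 2 of 10 genes passed between rejecting and naive kidneys in the loop of Henle (17.2% of all genes tested), 3 of 10 in the distal convoluted tubule (23.9%), 1 of 10 in principal cells (17.6%), and 1 of 9 in intercalated cells (9.02%). Between tolerized and naive kidneys Gpx3 alone passed in each of them, against 11% of genes in the loop of Henle, 16.7% in the distal convoluted tubule, 17.2% in principal cells, and 7.14% in intercalated cells. Over the 5 segments, 12 of 49 tests passed for rejecting kidneys and 7 of 49 for tolerized kidneys, all of them lower than in naive kidneys. Nqo1 in intercalated cells was not tested, with 1 to 27 UMIs per kidney. Gpx1, Gclm, Txnrd1, and Srxn1 passed in no segment. With other settings and all kidneys, Gpx1 passed in the distal convoluted tubule of rejecting kidneys with no filter on low counts (−0.60, FDR = 0.0272), with doublets kept (−0.84, FDR = 0.0408), and with at most 20% mitochondrial UMIs (−0.92, FDR = 0.0434), and in the loop of Henle of tolerized kidneys with no filter (−0.69, FDR = 0.0350). The free RNA estimate, set by marker sums that were higher in naive kidneys, took a larger share of UMIs from naive than from graft kidneys. Subtracting this estimate turned Gpx1 the other way in both segments. In the distal convoluted tubule it was 0.28 (FDR = 0.317) in rejecting and 0.22 (FDR = 0.466) in tolerized kidneys. For the loop of Henle the values were 1.15 (FDR = 0.00547) and 0.77 (FDR = 0.0533). Gclm passed as higher in principal cells of rejecting kidneys with at most 20% mitochondrial UMIs (0.81, FDR = 0.0273). Gclc passed as lower there at the same limit (−0.88, FDR = 0.02285) and with no filter (−0.72, FDR = 0.0286). At that mitochondrial limit Nqo1 also passed as lower in the distal convoluted tubule of rejecting (−1.15, FDR = 0.0433) and tolerized kidneys (−1.10, FDR = 0.0404), with 65 and 75 naive cells left. Leaving out 1 kidney brought in Gpx1 in the loop of Henle (without the first naive kidney, −1.02 in rejecting, FDR = 0.0487, and −1.28 in tolerized kidneys, FDR = 0.0209) and in the distal convoluted tubule (without the first rejecting kidney, −0.89, FDR = 0.0287). It likewise brought in Txnrd1 in principal cells (without the first rejecting kidney, 0.82, FDR = 0.0369) and Gclc in the loop of Henle (without the second rejecting kidney, −1.20, FDR = 0.0234).

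Some of the genes on the naive side of these contrasts behaved differently in the proximal tubule than elsewhere, as tested by an interaction of segment and group. Gpx4 had its fall in rejecting kidneys in the proximal tubule, while in the loop of Henle it stood at 707 and 1021 CPM in naive and 893 and 1027 in rejecting kidneys, and in intercalated cells at 478 and 516 against 549.7 and 566. The Gpx4 difference between rejecting and naive kidneys was higher than in the proximal tubule by 1.16 ± 0.17 in the loop of Henle (FDR = 0.000147), 0.93 ± 0.17 in the distal convoluted tubule (FDR = 0.00128), 0.64 ± 0.18 in principal cells (FDR = 0.0221), and 1.15 ± 0.18 in intercalated cells (FDR = 0.000275). Short ribosomal protein transcripts moved alongside, with medians of −0.46 in the proximal tubule, 0.39 in the loop of Henle, 0.20 in the distal convoluted tubule, 0.02 in principal cells, and 0.08 in intercalated cells, and against genes of similar length the proximal tubule value of Gpx4 was −0.39; their part in the departures was not tested. Sod2 stood at 443 and 502 CPM in naive and 451 and 512 in rejecting kidneys in the loop of Henle, and its difference was higher there by 0.85 ± 0.17 (FDR = 0.00173) and in intercalated cells by 0.81 ± 0.18 (FDR = 0.00577). Nqo1 stood at 49.0 and 38.4 CPM in naive and 27.4 and 39.8 in rejecting kidneys in the distal convoluted tubule, where its difference was higher by 1.18 ± 0.33 (FDR = 0.0233). With at most 20% mitochondrial UMIs, however, Nqo1 passed as lower in that segment in rejecting (−1.15, FDR = 0.0433) and tolerized kidneys (−1.10, FDR = 0.0404). The interaction was not run with that limit, which left 65 and 75 naive cells of the segment. In principal cells Nqo1 stood at 13.9 and 14.3 against 15.3 and 20.5, a difference higher by 1.90 ± 0.50 (FDR = 0.0171).

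For Gpx3 the interaction had the other sign: the segment minus the proximal tubule gave −3.06 ± 0.64 in the loop of Henle (FDR = 0.00228) and −2.52 ± 0.67 in principal cells (FDR = 0.0174). In these classes its level was near that expected from the proximal tubule markers. Among 12000 genes, the share whose rejecting difference departed from that in the proximal tubule was 15.2% for the loop of Henle, 11.4% for the distal convoluted tubule, 9.98% for principal cells, and 11.2% for intercalated cells. The genes studied here gave 3, 2, 3, and 2 of 10, and all 10 of these calls remained with DESeq2's size factors and without a filter on low counts. For tolerized against rejecting kidneys, none of the 10 genes departed from the proximal tubule by edgeR, against 0.0167% of all genes for the loop of Henle, 0.025% for the distal convoluted tubule, 0.0833% for principal cells, and 0.0167% for intercalated cells.

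The tolerized and rejecting kidneys were then compared with each other, the contrast in which strain, age, and the gene list did not change. Depth did differ between these groups. The tolerized libraries held 96803926 and 94316013 UMIs and the rejecting ones 56837038 and 48111410. Median UMIs per cell were 6120 and 7306.5 in tolerized and 2523 and 3564 in rejecting kidneys. The part of depth in the results was not tested. None of 49 tests in the segments passed by edgeR, and 5 of 49 had an unadjusted p under 0.05. In the proximal tubule 0% of 12645 genes passed (1423 with an unadjusted p under 0.05; DESeq2 called 192). Shares by edgeR elsewhere were 0.636% in the loop of Henle, 0.0773% in the distal convoluted tubule, 0.0975% in principal cells, and 0.0134% in intercalated cells. Gpx3 accounted for 4 of the 5 low p values and was higher in tolerized kidneys in all 5 segments, without overlap. The differences were 0.83 ± 0.21 in the proximal tubule (95% interval 0.35 to 1.30, FDR = 0.227), 1.58 ± 0.59 in the loop of Henle (FDR = 0.521), 1.04 ± 0.29 in the distal convoluted tubule (FDR = 0.232), 1.51 ± 0.66 in principal cells (FDR = 0.603), and 0.76 ± 0.42 in intercalated cells (FDR = 0.729). In the loop of Henle and principal cells, Gpx3 was near the level expected from proximal tubule markers, and the source of that RNA was not tested. With the free RNA estimate subtracted, the values were 1.15 ± 0.87 in the loop of Henle (FDR = 0.855) and 0.60 ± 0.46 in the distal convoluted tubule (FDR = 0.845). They were 1.13 ± 1.79 in principal cells (FDR = 0.945) and 0.60 ± 0.41 in intercalated cells (FDR = 0.763). In the proximal tubule 39.3% of all genes had groups apart. DESeq2 called Gpx3 there (0.83, FDR = 0.000415). With no filter on low counts, edgeR called Gpx3 in the proximal tubule (0.86, FDR = 0.0119) and the loop of Henle (1.62, FDR = 1.33e-08). The same setting called it in the distal convoluted tubule (1.08, FDR = 7.84e-05) and principal cells (1.58, FDR = 2.07e-06). In the proximal tubule, that setting also passed many more of all genes, as given below. Without the first rejecting kidney, the Gpx3 value was 4.45 in principal cells and 1.86 in intercalated cells.

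The other 9 genes differed less between tolerized and rejecting kidneys than Gpx3 did. Gclc in the distal convoluted tubule, the fifth low p value, differed by 0.59 ± 0.18 (95% interval 0.18 to 0.99, FDR = 0.316). In the proximal tubule, the 95% intervals ran from −0.45 to 0.66 for Gpx1, −0.21 to 0.65 for Gpx4, −0.17 to 0.85 for Sod1, −0.27 to 0.59 for Sod2, −0.58 to 0.43 for Gclc, −0.31 to 0.45 for Gclm, −0.60 to 0.16 for Txnrd1, −0.37 to 0.44 for Srxn1, and −0.22 to 0.80 for Nqo1. These intervals leave room for differences in either direction. The median over the 10 genes in the proximal tubule was 0.13, and tubular injury markers had a median of −0.58.

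In macrophages, rejecting and tolerized kidneys did not overlap for 7 of 9 tested genes, against 35% of all genes. Of these, 5 were higher in tolerized kidneys (Gpx1, Gpx3, Gpx4, Sod1, and Srxn1) and 2 were higher in rejecting kidneys (Sod2 and Txnrd1). None passed the test. Raw CPM is given, and naive kidneys, which held few macrophages, were described and not tested. Gpx1 stood at 1050.4 and 1564 in the naive pair, 712 and 735 in the rejecting pair, and 817 and 905 in the tolerized pair, with no overlap between groups. The level of Gpx1 expected from free proximal tubule RNA was 462 and 813 in the naive pair and at most 82.0 in the grafts, so no order of naive against graft macrophages is read from it. Sod2 stood at 80.8 and 155, 251 and 262, and 189 and 222, so that the naive kidneys, with 7 and 45 UMIs, were the lowest and the rejecting kidneys the highest. Txnrd1 followed the same order, with 0 and 3 UMIs in the naive kidneys, where the exact 95% Poisson interval of the first reached 42.6 raw CPM, and 63.4 and 66.6 raw CPM in rejecting and 58.1 and 51.1 in tolerized kidneys. Naive and graft macrophages mostly lay in different clusters. The order of naive against graft kidneys for Sod2 and Txnrd1 is therefore not read as a change within macrophages. Gpx4 ran from 219 to 308 in the grafts, Sod1 from 52.1 to 75.7, Gclm from 43.9 to 89.2, Gclc from 13.7 to 19.3, and Srxn1 from 8.40 to 11.2. Nqo1 was at 0.213 to 0.959 in the grafts, from 2 to 8 UMIs per kidney, and was not tested.

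None of 9 tests passed between tolerized and rejecting macrophages by edgeR, where 0% of 11029 genes passed (606 with an unadjusted p under 0.05; DESeq2 called 22 genes and none of the 9). Gpx3 had the largest difference, with 83.6 and 28.2 raw CPM in rejecting and 181 and 455 in tolerized kidneys, which gave 2.59 ± 0.58 (95% interval 1.23 to 3.94, FDR = 0.626). It was called with no filter on low counts (2.57, FDR = 4.93e-26) and with crossed replicate numbers (2.64, FDR = 5.25e-05). The value was 3.59 without the first rejecting kidney and 3.13 without the first tolerized kidney. The proximal tubule markers in these macrophages were at 158 and 57.6 raw CPM in rejecting and 208 and 492 in tolerized kidneys, none of the 16 was at 0, and Gpx3 was 0.83 to 1.39 times the level expected from them over the 6 kidneys. Gpx3 in macrophages was thus near the level expected from these markers, and the source of that RNA was not tested. Gpx1 in macrophages, by contrast, was 1.92 to 66.6 times its expected level. The differences of the other genes ran from −0.24 for Sod2 to 0.47 for Gclm. With Gpx3, 7 of 9 were above 0, and the median was 0.33 against −0.01 over all genes. Ribosomal protein genes had a median of 0.20 in the same test, with 83 of 93 above 0.

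The wider pathway was read from a list of 78 genes of the glutathione, thioredoxin, and selenium systems and of Nrf2 control. In the proximal tubule 71 were tested: 6 were higher and 23 lower in rejecting than in naive kidneys, and 4 were higher and 16 lower in tolerized than in naive kidneys. These shares were no higher than those over all genes, 41.5% and 31.6%. None differed between tolerized and rejecting kidneys by edgeR there, nor did any of 66 in macrophages. By size, the highest in rejecting kidneys were the glutathione transferase genes Gstm2 (3.09, FDR = 0.000215), Gsta1 (2.97, FDR = 0.0170), and Gstp1 (1.25, FDR = 0.0277), and the lowest were Nnt (−3.72, FDR = 3.98e-05), which encodes a mitochondrial source of NADPH, the peroxidase gene Gpx6 (−2.10, FDR = 0.0162), and Selenop (−1.97, FDR = 0.000468), which encodes the plasma carrier of selenium. In tolerized kidneys the highest were Gsta1 (5.05, FDR = 0.00210), Gstm2 (3.45, FDR = 0.000145), and Bach1 (0.67, FDR = 0.0218), a repressor that competes with Nrf2, and the lowest were Nnt (−3.49, FDR = 3.83e-05), Gpx6 (−1.97, FDR = 0.0184), and Gpx8 (−1.72, FDR = 0.0284). Gpx6 and Gpx8 had mean levels under 3 CPM in every group. Catalase (Cat), which breaks down hydrogen peroxide, is named after its values were seen, and it fell by 1.63 in rejecting (FDR = 0.000588) and by 1.15 in tolerized kidneys (FDR = 0.00373). Nfe2l2 passed in no class or contrast. Keap1 was higher in rejecting than in naive kidneys in the proximal tubule (0.66, FDR = 0.0407) and in the distal convoluted tubule (0.65, FDR = 0.0493), and higher in tolerized than in naive kidneys in principal cells (0.68, FDR = 0.0369). Outside the proximal tubule and macrophages, 1 gene of the list differed between tolerized and rejecting kidneys: Gstp1 was lower in tolerized kidneys in the loop of Henle (−1.91, FDR = 0.0354).

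The genes whose levels were most like those of each member were looked up over 36 sums, 6 kidneys by 6 classes, among 12075 genes. The sums of a kidney share a library, and the correlations are descriptions. Gpx3 was most like Ugt3a1 (Pearson's r = 0.945), Fut9 (0.932), and Spink1 (0.922). Gpx1 was most like Cndp2 (0.968) and Akr1a1, and Gpx4 like Ech1 (0.958), Nudt19, and Acot13. Sod1 was closest to Tst, Def8, and Acsm3, and Sod2 to Hibch, Glrx5, and Mrpl41. Gclm also had Tst among its closest genes, beside Neu1 and Nit1, while Gclc was closest to Vdr, Mettl27, and Gm17634, with the lowest values of all (0.862 to 0.865). Txnrd1 was closest to Tnks2 (0.954), Tnpo1, and Agfg1, Srxn1 to Ssbp3 (0.938), Cd99l2, and Gtf2i, and Nqo1 to Abhd14b (0.921), Gstk1, and Echdc1. The sums included the sparse macrophages of naive kidneys, and the lowest macrophage level of Txnrd1 and of Srxn1 was 0 CPM. The part of these low sums in the correlations was not tested. Among the 10 genes themselves, the closest pair was Sod1 and Gclm (0.866).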

How the data were processed

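Single cell RNA sequencing was done on 6 mouse kidneys. The authors deposited raw UMI counts per gene and cell, made with bcl2fastq and Cell Ranger on mm10, as the submitters' processing notes name them, and no per-sample column was left unmapped (0). The 10 genes and all lists were chosen with earlier results of these data known. Barcodes were used from 500 UMIs and 250 genes upward, up to a mitochondrial share of 50%, and doublets were called with Scrublet in scanpy 1.11.5 at 0.8% per 1000 barcodes and removed. Cells were clustered (2500 variable genes without the 10 genes, 40 components, 20 neighbors, leidenalg 0.10.2 at resolution 1.5). A cluster was named when at least 3 markers of a class were in at least 10% of its cells and at least 2 times the mean. The naive libraries shared 111 barcodes, and pairs of transplanted libraries 18 to 35.

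UMIs were summed per kidney and class, scaled by TMM, filtered with filterByExpr, and tested with edgeR 4.0.16 (R 4.3.3; quasi-likelihood, all 6 kidneys for segments, rejecting and tolerized kidneys for macrophages). P values were adjusted by Benjamini-Hochberg over all genes of a class, and SE was taken from the fold change and its F statistic. Alternatives were DESeq2 1.42.0, its size factors, no filter on low counts, a replicate block, stricter cell limits, another clustering, and each kidney left out. Subtraction of free RNA and crossed replicate numbers were added after the data were seen. Correlations of deviations between samples with the same number were −0.122 to 0.077 in segments and −0.149 in macrophages. The labels do not say what makes replicates separate, so p values and intervals of fold changes refer to the spread between these kidneys only. In edgeR that spread is estimated partly from all genes. The intervals between tolerized and rejecting kidneys used 7.7 to 14.2 degrees of freedom, more than 2 kidneys per group give alone. Poisson intervals cover counting error only. Named pathway genes are up to 3 per direction with the largest change among those that passed, plus Nfe2l2 and Keap1, and for each gene the 3 with the highest correlation, of which a gene is not reported here. Fits were tested on simulated data.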

Additional observations from a re-analysis of the deposited data

Results flagged for a closer look

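In 10 cases, the difference between rejecting and naive kidneys in a segment departed from that in the proximal tubule by an interaction test in edgeR, with log2 differences given as segment minus proximal tubule. Gpx4 departed by 1.16 in the loop of Henle, 0.93 in the distal convoluted tubule, 0.64 in principal cells, and 1.15 in intercalated cells. Sod2 departed by 0.85 in the loop of Henle and 0.81 in intercalated cells, and Nqo1 by 1.18 in the distal convoluted tubule and 1.90 in principal cells. With at most 20% mitochondrial UMIs, Nqo1 in the distal convoluted tubule of rejecting kidneys fell by 1.15 (FDR = 0.0433), and the interaction was not run with that limit. The limit left 65 and 75 naive cells of that segment. Gpx3 departed by −3.06 in the loop of Henle and −2.52 in principal cells, where its level was close to that expected from proximal tubule markers.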

How the results depend on the processing

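With all 6 kidneys, 12 of 49 segment tests passed between rejecting and naive kidneys, 7 between tolerized and naive kidneys, and none between tolerized and rejecting kidneys. With a replicate block these counts were 12, 6, and 0, and 0 in macrophages, and the cause of the 1 lost call, Gpx3 in intercalated cells of tolerized kidneys, was not tested. Over all genes, the block moved the tolerized against rejecting calls from 62 to 95 in the loop of Henle, 8 to 87 in the distal convoluted tubule, and 10 to 35 in principal cells. The study ran 2 experiments, which the labels do not tie to the replicate numbers, and with crossed numbers 1 gene, Gpx3, passed in macrophages. Between tolerized and rejecting kidneys, DESeq2 called 1 segment test and a fit with no filter on low counts 4, all of them for Gpx3. Without a filter 1 gene, also Gpx3, passed in macrophages. DESeq2 lost 5 calls against naive kidneys: Gpx3 in principal cells (rejecting, FDR = 0.0690; tolerized, FDR = 0.419), Gpx3 of tolerized kidneys in intercalated cells (FDR = 0.230) and the loop of Henle (FDR = 0.0686), and Nqo1 of rejecting kidneys in the loop of Henle (FDR = 0.0752). Leaving out 1 kidney gave 0 to 2 segment calls and 0 to 1 macrophage calls in that contrast, 8 to 13 calls between rejecting and naive kidneys, and 1 to 8 between tolerized and naive kidneys. Between tolerized and rejecting proximal tubules, 848 of 18713 genes passed without a filter. In the loop of Henle the free RNA estimate took a larger share of UMIs from naive than from graft kidneys. With it subtracted, Gpx1 in that segment of rejecting against naive kidneys turned to 1.15 (FDR = 0.00547). With at most 20% mitochondrial UMIs, which left 65 and 75 naive cells, Gclc in the distal convoluted tubule of rejecting against naive kidneys turned to 0.064. The cause of each was not tested. The 10 departures from the proximal tubule became 13 with DESeq2's size factors and 15 with no filter, and the 17 ordered pairs became 15 with raw CPM. With 2 kidneys per group, and 34 intercalated cells in the smallest sum, small differences could not be detected.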

Other observations

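With the free RNA estimate subtracted, an alternative chosen after the data were seen, Gclm passed as higher than in naive kidneys in 3 segments. The marker sums that set the subtraction were higher in naive kidneys: 769 and 2373 raw CPM in the loop of Henle, against 53.2 to 350 in grafts. The subtraction by itself thus raises genes abundant in the proximal tubule, such as Gclm, in grafts relative to naive kidneys. The share of all genes that passed after it is not given. The values for rejecting and tolerized kidneys were 1.19 (FDR = 0.00481) and 0.84 (FDR = 0.0384) in the loop of Henle, 0.75 (FDR = 0.0143) and 0.74 (FDR = 0.0162) in the distal convoluted tubule, and 1.06 (FDR = 0.00719) and 0.83 (FDR = 0.0185) in principal cells. Without the subtraction Gclm passed in none of them with the settings of the report, and in principal cells of rejecting kidneys with at most 20% mitochondrial UMIs (0.81, FDR = 0.0273).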
